A study of Paracentrotus lividus with 19 samples.

Results

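ZnO particles were compared with the zinc salt ZnSO4 in embryos of Paracentrotus lividus, a sea urchin, across every transcript feature that could be tested. The comparison used 7 of the 19 poly(A) RNA libraries of the study, 3 from embryos kept with ZnO and 4 from embryos kept with ZnSO4, chosen by the treatment in the library title. Fertilized eggs received ZnO at 0.8 mg per L of zinc (given in the labels also as 1e-05 M), or ZnSO4 heptahydrate at the equivalent zinc concentration, for 24 h, and about 6000 embryos were then collected per sample. The 4 unexposed libraries of the same age served as the reference level. Libraries exposed to Fe2O3 or FeCl3 entered the fit, where they bear on the set terms and the estimate of spread, but are compared with nothing here. No genotype, strain or size of particle is given in the labels. Each library belonged to 1 of 3 sets, F1, F2 or F3. Set F1 held 1 ZnO and 2 ZnSO4 libraries, and F2 and F3 held 1 of each. Nothing in the labels ties the libraries to separate cultures, and the p-values therefore reflect only the spread between libraries, part or all of which may be technical.

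A ZnO particle can act on an embryo as a solid, by contact or uptake, and it also dissolves in seawater and releases zinc ions. A soluble salt such as ZnSO4 supplies the ions alone, so a particle is commonly tested beside a salt of the same metal. Zinc is required by many enzymes and transcription factors, and cells buffer an excess with metallothioneins, small cysteine-rich proteins whose genes are switched on by zinc. In sea urchin embryos zinc has long been known to disturb the layout of the body axes, which ectodermal signals and regional transcription factors set up.

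The 7 zinc libraries held 24438369 to 32801015 counts each, and log2 CPM (CPM, counts scaled to a fixed library size) had correlations of 0.975 to 0.983 within a set, falling to 0.809 to 0.839 for libraries of different sets. Set was therefore a term in the model. Gut (ENDO16), skeletal (SM30, SM29, PM27) and ectodermal (CHRD, DLX, UNIV) transcripts were all measured, and the pigment cell markers PKS1 and GCM were not analysed here. In whole embryos, fewer cells of a type and less RNA per cell cannot be told apart.

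Few transcripts differed between the particle and the salt over the sets together. Of 62865 features tested, 49 (0.0779%) differed at an adjusted p under 0.05 by edgeR's quasi-likelihood test with Benjamini-Hochberg adjustment. With ZnO, 28 features (0.0445%) were higher and 21 (0.0334%) were lower. At an unadjusted p under 0.05 there were 4315 features (6.86%). Across all features the median log2 difference, ZnO minus ZnSO4, was -0.0019, and the median of its absolute size was 0.133. For 50353 features (80.1%) the 95% interval of the difference lay wholly inside 2-fold in either direction, and among the 41181 features with a mean log2 CPM of at least 1 this share was 97.4%. Here and below, such intervals assume the same difference in all sets. A feature with opposite differences in different sets can therefore lie inside 2-fold. ACAC.1.3, described below, had an interval of -0.34 to 0.51 but log2 differences of -0.85 in F1 and 1.17 in F3. Against unexposed embryos, 2.09% of the features were called with ZnO and 5.42% with ZnSO4. These shares rest on 3 ZnO and 4 ZnSO4 libraries, so they do not compare the size of the responses.

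**Figure D1:**
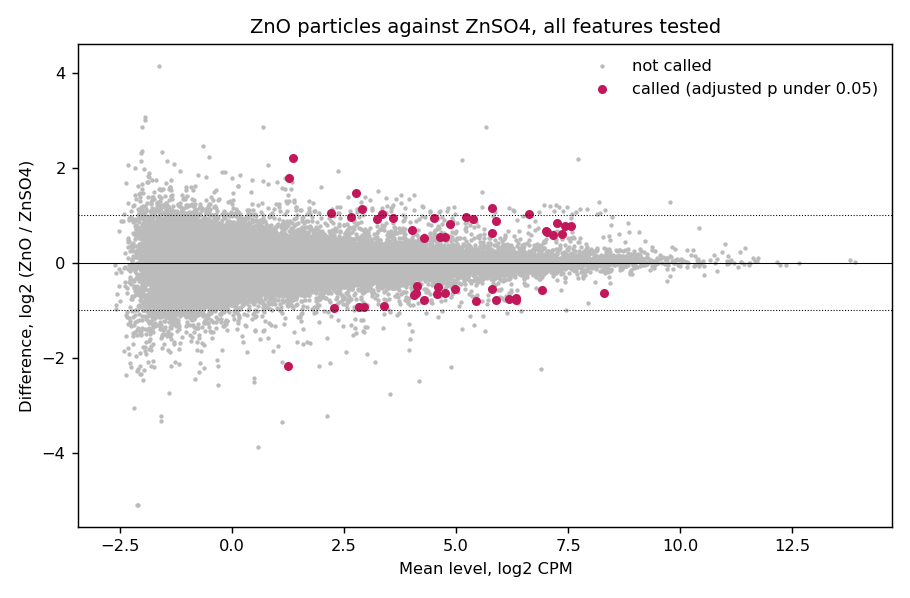
Difference between ZnO and ZnSO4 (log2, vertical axis) against mean level (log2 CPM, horizontal axis) for each of the 62865 features tested; the 49 called features are coloured, and dotted lines mark 2-fold. The called features lie at mean log2 CPM of 1.26 to 8.29, and many uncalled features at low levels have larger differences.

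The number of called features depended strongly on single libraries. It was 4 without the F3 ZnO library, 14 and 22 without the F1 ZnSO4 libraries 1 and 2, and 26 without F2 ZnO. Without 1 library from outside the comparison it was 32 to 44, with 32 without F1 control 1 or without F1 Fe2O3 2. It was 342 without F1 ZnO, 378 without F2 ZnSO4 and 426 without F3 ZnSO4. Without F1 ZnO, or without any zinc library of F2 or F3, the particle and the salt are no longer compared within that set. None of the 49 features kept its call in all 19 of these fits, while 30 kept it in at least 15. With both F1 libraries of a treatment summed, 1 feature was called, and without the set term none was (448 at an unadjusted p under 0.05).

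Among the 49 features, 4 carried a gene name, 27 were numbered contigs and 18 carried a LOC identifier that the deposited table does not pair with a name. EVE was higher with ZnO. This even-skipped homeobox gene encodes a transcription factor of the posterior, gut-forming side of the sea urchin embryo. In F1 it stood at 98.2 CPM with ZnO and at 47.5 and 56.3 CPM with ZnSO4. The F2 values were 223 CPM with ZnO and 179 CPM with ZnSO4, and the F3 values 159 and 106 CPM. The ZnO library was thus the highest of the zinc libraries in each set, although the groups overlapped across sets. Unexposed embryos had 104 and 103 CPM in F1, 210 CPM in F2 and 124 CPM in F3, above the ZnSO4 library in every set. EVE averaged 160 ± 62.4 CPM with ZnO (SD, n = 3) and 97.1 ± 60.1 CPM with ZnSO4 (n = 4), and the log2 difference within sets was 0.67 ± 0.12 (SE, adjusted p = 0.0267, edgeR). Against control it differed by 0.08 with ZnO and by -0.59 with ZnSO4. The call ended without F1 ZnSO4 1, F1 ZnSO4 2, F2 ZnO or F3 ZnO (adjusted p = 0.0647, 0.103, 0.0737 and 0.186).

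NDUFS7, which encodes an iron-sulfur subunit of mitochondrial respiratory complex I, was also higher with ZnO. Its levels were 58.5 CPM with ZnO against 40.8 and 42.3 CPM with ZnSO4 in F1. They were 380 against 205 CPM in F2 and 112 against 83.6 CPM in F3. As with EVE, each set had its ZnO library above its ZnSO4 libraries, while F2 stood far above the other sets in both treatments. The log2 difference was 0.66 ± 0.13 (SE, adjusted p = 0.0383, edgeR), with 0.14 for ZnO and -0.52 for ZnSO4 against control. The call was kept in 7 of 19 fits that left out 1 library, namely those without F1 control 2, F1 ZnO, F2 ZnSO4, F3 control, F3 Fe2O3, F3 FeCl3 or F3 ZnSO4, and its adjusted p reached 0.256 without F3 ZnO. NDUS7, another spelling of the name, was not called, and none of the other 19 oxidative phosphorylation features was.

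TRIM25, which in vertebrates encodes a ubiquitin ligase of antiviral signalling, was the third. It was low in F1, at 1.4 CPM with ZnO and 0.7 CPM in both ZnSO4 libraries. In F2 it stood at 29.3 CPM with ZnO and 12.1 CPM with ZnSO4, and in F3 at 4.2 and 3.1 CPM. The order was the same in each set, on counts of 20 to 727 per zinc library. The log2 difference was 0.97 ± 0.19 (SE, adjusted p = 0.0408, edgeR). The call was kept without F1 control 2, F1 Fe2O3 1, F1 FeCl3 1, F1 ZnO, F3 control, F3 Fe2O3 or F3 ZnSO4 and ended without any other library (highest adjusted p = 0.322 without F2 ZnO).

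ANKAT-1.2.2, a feature of the ankyrin-repeat gene ANKAT-1 of the apical plate, the neurogenic region at the animal pole, was lower with ZnO. Its counts were 23 with ZnO against 177 and 156 with ZnSO4 in F1. In F2 they were 10 against 15, and in F3 1 against 0. The difference therefore lay in F1, where controls had 102 and 135 counts, and hardly any reads were present in F3. The fitted log2 difference was -2.17 ± 0.41 (SE, adjusted p = 0.0366, edgeR), and without set F1 it was -0.25 (adjusted p = 0.991). Leaving out 1 library ended the call in 13 of 19 fits, with an adjusted p of 0.425 without F1 ZnO.

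**Figure D2:**
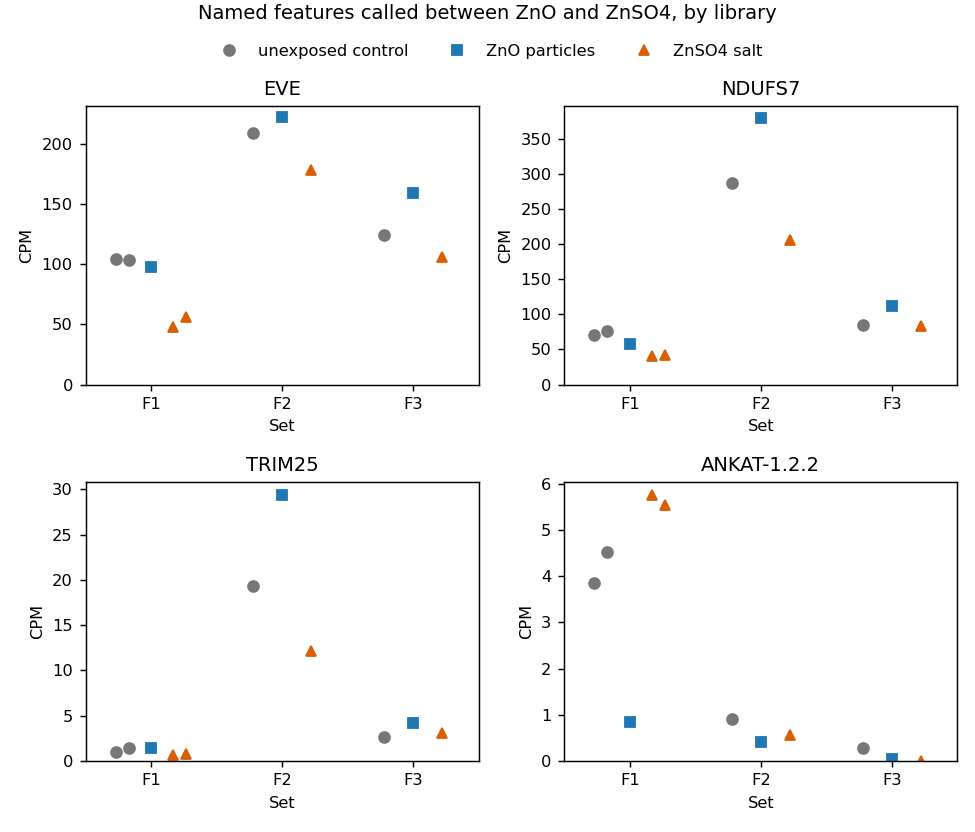
Levels of the 4 named features called between ZnO and ZnSO4, in CPM (vertical axis, from 0) by set (horizontal axis), with 1 symbol per library. For EVE, NDUFS7 and TRIM25 the ZnO library lies above the ZnSO4 libraries of its set; for ANKAT-1.2.2 the F1 ZnO library lies below both F1 ZnSO4 libraries, and F2 and F3 are near 0.

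Of the features without a gene name, the largest differences were those of contig_36175 and contig_12876 (higher with ZnO, log2 2.21 ± 0.36 and 1.79 ± 0.31) and of contig_21386 and LOC588965 (lower, -0.95 ± 0.18 and -0.93 ± 0.17). Contig_36175 had 131 counts with ZnO and 34 and 24 with ZnSO4 in F1, and 0 in the zinc libraries of F2 and F3. Contig_12876 had 114 against 37 and 30 counts in F1, and no more than 1 count in any zinc library of the other sets. Their differences rest on F1 alone, and without the F1 ZnO library both changed sign (-1.11 and -0.62, adjusted p = 0.916 and 0.93). LOC588965 had 132 counts with ZnO against 222 and 232 with ZnSO4 in F1, 157 against 357 in F2 and 197 against 366 in F3, so the salt was higher in every set. Its call ended without F1 ZnSO4 1, F1 ZnSO4 2, F2 ZnO or F3 ZnO (highest adjusted p = 0.248). Contig_21386 kept its sign in every fit, and its call in 7 of 19 (highest adjusted p = 0.269 without F3 ZnO).

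Most called features differed the same way in the 3 sets. Of the 28 higher with ZnO, 26 had the ZnO library above every ZnSO4 library of its set in all 3 sets, and of the 21 lower with ZnO, 20 had it below. Since these features were called on the same libraries, this describes them and is no separate test. The share of all features with such an order was not determined. The median log2 difference of the 28 was 0.60 in F1, 0.85 in F2 and 0.69 in F3, and that of the 21 was -0.71, -0.81 and -0.58. Set against unexposed embryos, the 28 had a median log2 difference of 0.13 with ZnO and of -0.84 with ZnSO4, and the 21 had medians of -0.31 with ZnO and 0.25 with ZnSO4. These values share the zinc and control libraries with each other. Both zinc forms lay below control for 12 of the 28, both lay above for 4, and ZnO lay above and ZnSO4 below for 12. Among the 21, ZnO lay below and ZnSO4 above control for 12, both lay above for 7 and both below for 2.

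**Figure D3:**
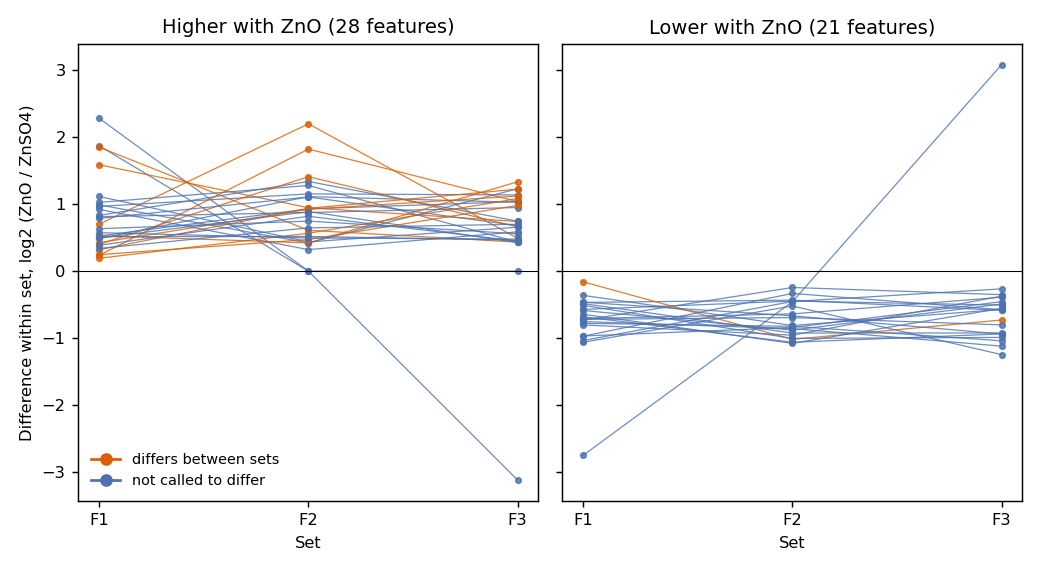
Difference between ZnO and ZnSO4 within each set (log2, vertical axis) for the 28 called features higher with ZnO and the 21 lower, with 1 line per feature; orange lines are the 11 features whose difference itself differed between sets. All but 3 lines stay on 1 side of 0, and those 3 have at most 15 counts in each zinc library of F2 and F3.

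Whether the particle and salt differed in the same way in each set was tested with set-by-form terms. In a model with 1 mean per set and treatment, 1552 of 62865 features (2.47%) had a difference between ZnO and ZnSO4 that itself differed between sets, and 1106 of these had opposite signs in F1 and F3. The residual spread of that model came from the F1 pairs alone, with 4 degrees of freedom. Each set held 1 ZnO library, so a difference between sets cannot be told apart from the deviation of a single library. Set-dependence below means only that the test of set-by-form terms was passed. That test favours features with opposite signs, and the share of such signs over all features was not determined. Within F1, where 1 ZnO library faced 2 ZnSO4 libraries, 2180 features (3.47%) were called, 1045 higher and 1135 lower with ZnO. Within F2 and F3, each with 1 library against 1, there were 358 and 453. The F1 number was 1436 without F1 ZnSO4 1 and 1400 without F1 ZnSO4 2. Among the 577 tested features with a gene name, 64 (11.1%) had a set-dependent difference.

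In F1, 5 of the 6 heat shock features were higher with the salt than with the particle, and HSP90B1 was not. These genes encode chaperones that refold damaged proteins. HSP74.1.2, a feature of the Hsp70 family, had 2.2 CPM with ZnO in F1 and 30.1 and 32.6 CPM with ZnSO4. Controls of F1 had 1.2 and 2.1 CPM, so that only the F1 salt libraries stood high. In F2 and F3 every control and zinc library had between 0.4 and 1.2 CPM. The pooled log2 difference was -3.22 ± 0.67 (SE, adjusted p = 0.0663, edgeR), which was not called, with a within-F1 difference of -3.84 (adjusted p = 1.1e-08) and -1.23 without F1 (adjusted p = 0.746). DESeq2 and a fit to the 7 zinc libraries alone did call the pooled difference (adjusted p = 0.0218 and 0.00771), as did edgeR without set F2 (0.039), without set F3 (0.0391), without F2 ZnSO4 (0.00425) and without F3 ZnSO4 (0.00189).

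HSP74.2.2 followed the same order, with 8.4 CPM with ZnO in F1 and 33.6 CPM in the F1 library ZnSO4 2, the other F1 salt library standing slightly below the latter. In F2 it had 1.5 and 2.0 CPM and in F3 2.9 and 3.0 CPM. Its difference was set-dependent (adjusted p = 0.00127, edgeR), whereas for HSP74.1.2 and HSP72.2.3 the test of set-dependence was not passed (adjusted p = 0.0614 and 0.471). In F1, HSP72.1.3 had 87.8 CPM with ZnO and 132 and 138 CPM with ZnSO4, and HSP72.3.3 had 27.7 against 43.2 and 44.3 CPM. Both differed between sets in this difference (adjusted p = 0.00713 and 0.0105, edgeR), and in F3 both had the ZnO library slightly above the salt library. HSP72.2.3 had 9.6 CPM against 16.0 and 17.1 CPM in F1 (within-F1 adjusted p = 0.013, edgeR). HSP90B1, the chaperone of the endoplasmic reticulum, had 243 CPM with ZnO and 223 and 238 CPM with ZnSO4 in F1, and its log2 difference over all sets was -0.02 (95% interval -0.18 to 0.14). Of the 6 heat shock features, none was called in the pooled comparison, against a background of 0.0779%, and all 6 had a negative difference (median -0.48).

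Gut features were lower with the salt in F1. ENDO16, a secreted protein of the embryonic gut, is represented by 3 features. ENDO16.3.3 had 136 CPM with ZnO and 65.0 and 71.0 CPM with ZnSO4 in F1, where controls had 187 and 212 CPM. The F2 libraries had 334 CPM with ZnO and 293 CPM with ZnSO4, and the F3 libraries 278 and 256 CPM. The 3 ENDO16 features had log2 differences of 0.87 to 1.00 in F1, 0.19 to 0.25 in F2 and 0.12 to 0.16 in F3, and each was set-dependent (adjusted p = 0.00021 to 0.00889, edgeR). GATAE, a GATA transcription factor of the gut, had 64.7 CPM with ZnO and 22.1 and 24.4 CPM with ZnSO4 in F1, 69.2 and 73.3 CPM in F2, and 79.5 and 106 CPM in F3. The direction of GATAE thus turned between F1 and F3 (set-dependence adjusted p = 1.77e-08, edgeR). Of the 5 gut features EVE alone was called in the pooled comparison, against 0.0779% of all features. The 5 estimates were above 0 (median 0.52), that of GATAE with an interval of -0.23 to 0.99.

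CHRD, the gene of chordin, a secreted antagonist of BMP signals that mark the dorsal side, was higher with the particle in each set. With ZnO it had 79.1 CPM in F1, 322 CPM in F2 and 116 CPM in F3. With ZnSO4 it had 4.3 and 5.4 CPM in F1, 79.1 CPM in F2 and 64.3 CPM in F3. Controls ranged from 230 to 309 CPM, so the F2 ZnO library alone lay above the lowest control. The within-set log2 differences were 4.03, 2.03 and 0.85. They differed between sets (adjusted p = 2.33e-12, edgeR), and the pooled difference of 2.18 ± 0.55 (SE) had an adjusted p of 0.146. That difference was called without set F1 (1.58, adjusted p = 0.0073), with the 7 zinc libraries alone (2.47, adjusted p = 0.0282), without F2 ZnSO4 (2.92, adjusted p = 0.0258) and without F3 ZnSO4 (2.74, adjusted p = 0.0207).

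Several transcripts that fell with zinc in either form turned their order between sets. HMB1, a homeobox gene, had 18.0 CPM with ZnO and 21.3 and 20.5 CPM with ZnSO4 in F1. In F2 it had 33.7 and 18.2 CPM, and in F3 52.5 and 17.2 CPM. The salt libraries were alike in the 3 sets, whereas the ZnO libraries differed from set to set. DLX, a distal-less homeobox gene, had 7.6 CPM with ZnO and 16.4 and 16.5 CPM with ZnSO4 in F1, 16.1 and 18.3 CPM in F2, and 42.1 and 14.4 CPM in F3. Its controls stood between 39.1 and 82.6 CPM. ACAC.1.3, a feature of acetyl-CoA carboxylase, the first committed enzyme of fatty acid synthesis, had 28.3 CPM with ZnO and 45.5 and 56.4 CPM with ZnSO4 in F1, 29.5 and 21.7 CPM in F2, and 55.1 and 24.4 CPM in F3. ARC3 went the same way, with log2 differences of -1.06, 0.42 and 1.14 in F1, F2 and F3. For DLX, ACAC.1.3 and ARC3 the particle was thus lower than the salt in F1 and higher in F3, and set-dependence was called for HMB1 and for these 3 (adjusted p = 6.99e-08, 1.27e-09, 4.63e-07 and 9.22e-07, edgeR). Their pooled log2 differences were 0.88 for HMB1 (95% interval 0.42 to 1.34), 0.38 for DLX (-0.31 to 1.06), 0.09 for ACAC.1.3 (-0.34 to 0.51) and -0.04 for ARC3 (-0.50 to 0.42), and none was called. Without set F1, HMB1 (1.23, adjusted p = 0.000469) and ACAC.1.3 (0.81, adjusted p = 0.00293) were called by edgeR, and ARC3 stood at 0.78. HMB1 was also called without F1 ZnO (1.32) and without F2 ZnSO4 (adjusted p = 0.0384). ACAC.1.3 turned its sign without set F3 (-0.32), set F2 (-0.04), F2 ZnSO4 (-0.01), F3 ZnO (-0.15) or F3 ZnSO4 (-0.19), and DLX without set F3 (-0.36) or F3 ZnO (-0.29).

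**Figure D4:**
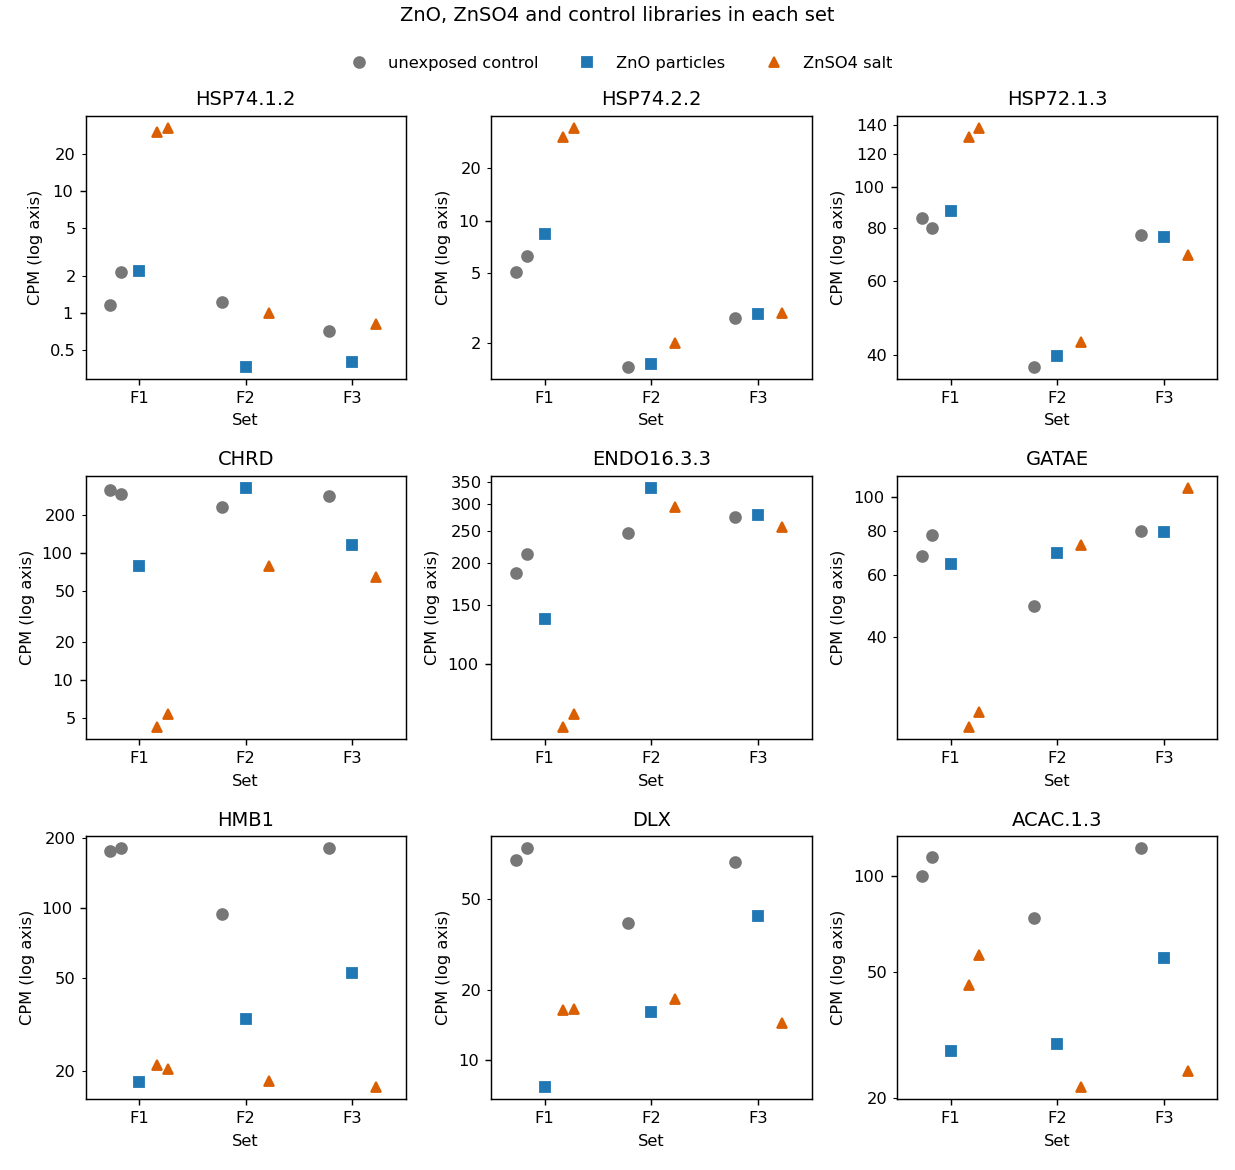
Levels of 9 features by set (horizontal axis) in CPM on a log axis, with 1 symbol per control, ZnO or ZnSO4 library. The F1 salt libraries stand apart from the F1 ZnO library for the HSP74 features, HSP72.1.3, CHRD, ENDO16.3.3 and GATAE, while for DLX and ACAC.1.3 the ZnO library is below the salt in F1 and above it in F3.

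Of the 4 apical plate features, NK2.1 and both ANKAT-1 features were lower with ZnO in F1, and ACSA had a pooled difference of 0.05 (95% interval -0.10 to 0.20). ANKAT-1.1.2 had 12.4 CPM with ZnO and 71.9 and 73.9 CPM with ZnSO4 in F1, where controls had 61.1 and 77.4 CPM. In F2 and F3 it was low with both forms, at 11.9 and 9.3 CPM and at 9.4 and 2.6 CPM. NK2.1, a homeobox gene of the apical plate, had 7.5 CPM with ZnO against 17.0 and 19.2 CPM in F1, 8.4 against 5.4 CPM in F2 and 3.1 against 6.6 CPM in F3. Both were set-dependent (adjusted p = 2.33e-12 and 0.000205, edgeR), and neither was called in the pooled comparison (-1.43 ± 0.56 and -0.87 ± 0.32, SE). The ANKAT-1.1.2 difference was called without F3 ZnSO4 (-1.97, adjusted p = 0.0071, edgeR), was -0.37 with the zinc libraries alone and turned to 0.88 without set F1, while NK2.1 was at -0.10 without set F1. EGIP, a secreted exogastrula-inducing polypeptide, had 739 CPM with ZnO and 342 and 326 CPM with ZnSO4 in F1, but 187 and 201 CPM in F2 and 517 and 468 CPM in F3 (set-dependence adjusted p = 5.46e-07, edgeR). ACTG1, a cytoplasmic actin, had 338 CPM against 189 and 221 CPM in F1, while the salt was higher in F2 (242 against 278 CPM) and in F3 (285 against 361 CPM). These features too had opposite orders in different sets.

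Metallothionein transcripts stood high with both forms. Summed over 23 features, they were at 11389 CPM with ZnO and at 11486 and 10781 CPM with ZnSO4 in F1. In F2 the sums were 8650 and 11817 CPM, and in F3 12594 and 12679 CPM. Controls ranged from 3774 to 6843 CPM, below every zinc library, and only in F2 did the 2 forms stand apart by more than the 2 salt libraries of F1 did. The mean was 10878 ± 2021 CPM with ZnO (SD, n = 3) and 11691 ± 788 CPM with ZnSO4 (n = 4). The log2 difference was -0.12 ± 0.09 (SE, adjusted p = 0.891, edgeR), with a 95% interval of -0.30 to 0.06. A difference of 2-fold lies outside that interval, and a small one does not. Without F2 ZnSO4 the difference was 0.05.

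By feature, all 23 had a lower estimate with ZnO, from -0.04 for MT.8.23 to -0.46 for MT.23.23, none was called (0.0779% of all features were), and all 23 intervals lay inside 2-fold. In F1 only 9 of the 23 were lower with ZnO (median 0.06), against 23 in F2 (median -0.45) and 16 in F3 (median -0.05). Some of the features with little RNA in controls had the larger differences. MT.17.23 had 63.5 CPM with ZnO and 84.6 and 73.6 CPM with ZnSO4 in F1, 29.2 and 39.5 CPM in F2, and 32.0 and 42.6 CPM in F3, against 2.7 to 4.9 CPM in controls. The ZnO library was the lowest zinc library in each set, with a log2 difference of -0.41 ± 0.11 (SE, adjusted p = 0.215, edgeR). MT.2.23 and MT.19.23 had differences of -0.40 and -0.37. Reads of near-identical copies may be divided between such features, so the sum is the firmer value. S39AE, named for the ZIP family of zinc importers, had 22.2 CPM with ZnO and 26.1 and 21.7 CPM with ZnSO4 in F1, and differed by 0.08 (95% interval -0.12 to 0.28).

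**Figure D5:**
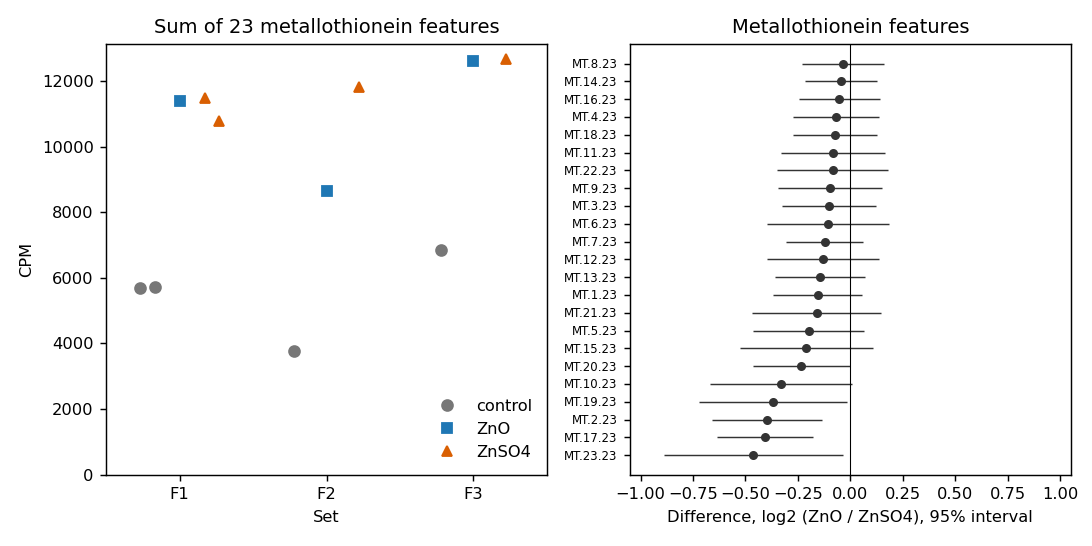
Left, summed metallothionein level (CPM, vertical axis from 0) by set, with 1 symbol per library; right, log2 difference between ZnO and ZnSO4 for each of the 23 features with its 95% interval. Zinc libraries lie between 8650 and 12679 CPM and controls between 3774 and 6843 CPM, and all intervals lie between -0.89 and 0.18.

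Features that respond to zinc as such gave a further view. The mean of both zinc treatments differed from control for 3056 features (4.86%), 1292 higher and 1764 lower. Of these, 25 (0.818%) also differed between ZnO and ZnSO4, against 0.0779% of all features. Both tests used the same zinc libraries and the same estimate of spread for each feature. The comparison of these shares is therefore no separate test. For the 1292 raised features the median ZnO minus ZnSO4 difference was -0.09, and 441 (34.1%) were above 0, against 49.6% of all features. For the 1764 lowered features the median was 0.10, and 1263 (71.6%) were above 0. The particle therefore lay nearer to control by a small margin in these medians, with log2 changes from control of 0.52 with ZnO and 0.61 with ZnSO4 for the raised features, and of -0.51 and -0.63 for the lowered. By set, the lowered features had medians of -0.06 in F1, 0.11 in F2 and 0.23 in F3, and the raised features had -0.01, -0.13 and -0.11, so that the particle did not lie nearer to control in F1. Intervals lay inside 2-fold for 1147 (88.8%) of the raised and 1443 (81.8%) of the lowered features. These features were chosen on the same zinc libraries.

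Among the zinc responses with a gene name, MMP16, a membrane-type matrix metalloproteinase, had 15.5 CPM with ZnO and 16.8 and 14.8 CPM with ZnSO4 in F1. It had 26.0 and 27.6 CPM in F2 and 11.9 and 13.3 CPM in F3, against 4.9 to 11.3 CPM in controls. Its difference was -0.12 (95% interval -0.34 to 0.10). BP10.3.6, a feature of the blastula protease BP10, differed by -0.04, with a wide interval of -0.75 to 0.68 at levels of 1.8 to 7.3 CPM.

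The lists from skeleton to iron, given next, held no called feature between ZnO and ZnSO4 in the pooled comparison. The background was 0.0779%, with a median of -0.0019 over all features. The median log2 difference was 0.04 for 13 skeleton features, -0.06 for 37 tubulin and dynein features of the cilia list, 0.01 for 13 matrix and secreted protease features, 0.02 for 13 ribosomal protein features and 0.06 for 12 antioxidant and redox features. It was 0.03 for 13 xenobiotic transport features, 0.05 for 5 cell cycle features, -0.04 for 2 apoptosis and DNA damage features, 0.09 for 5 lipid metabolism features and -0.10 for 3 iron features. In each of these lists the medians within F1, F2 and F3 did not all share a sign. They were 0.42, -0.63 and -0.15 for matrix and secreted proteases, and -0.73, 0.44 and 1.04 for lipid metabolism. For skeleton they were 0.29, -0.25 and 0.09, and for cilia -0.05, -0.27 and 0.27. The lipid list held ACAC.1.3, ACAC.2.3, ACAC.3.3, CPT1A and CPT1B. Each of its set medians was the value of an ACAC feature, so they describe that gene and not lipid metabolism at large. The 13 ribosomal protein intervals all lay inside 2-fold, as did 12 of 13 for skeleton and 30 of 37 for cilia, but only 8 of 13 for matrix and secreted proteases. All 7 actin features were above 0 (median 0.21), against 49.6% of all features. Their medians were 0.48 in F1, -0.09 in F2 and 0.28 in F3. ACTC.1.2 had 1798 CPM with ZnO against 1213 and 1370 CPM in F1, 874 and 867 CPM in F2, and 1727 and 1415 CPM in F3, and differed by 0.28 ± 0.07 (SE, adjusted p = 0.125, edgeR). Lists with 1 called feature each were pigment and immune (TRIM25 and C3), apical plate (ANKAT-1.2.2 among 4, median -1.15) and oxidative phosphorylation (NDUFS7 among 21, median 0.02). Within F1, F2 and F3 the medians of the apical plate list were -1.91, 0.28 and 1.00. The 5 ectoderm features had a median of 0.63, but medians of -0.01, -0.01 and 1.40 within F1, F2 and F3. Among them UNIV, a TGF-beta family ligand, differed by -0.03 (95% interval -0.18 to 0.13).

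Within the skeleton list, SM29, a spicule matrix gene, differed by 0.17 (95% interval 0.02 to 0.33) and FGFRL1.2.2, an FGF receptor-like feature, by -0.26 (-0.51 to -0.003). SM30 had an interval of -0.23 to 0.37. Of the 37 features of the cilia list, 13 had an estimate above 0, and TBA.1.4 (-0.88) and TBB4B.1.3 (-0.23) were among those lower with ZnO. Those with the smallest p, TBA1.6.12 and TBA1.1.12, were both higher. TBA1.6.12 had 19.4 CPM with ZnO against 7.9 CPM in both F1 salt libraries and 28.1 against 18.1 CPM in F3, with 27.9 against 23.8 CPM in F2 (0.79 ± 0.18, SE, adjusted p = 0.0871, edgeR). TBA1.1.12 differed by 1.21 ± 0.27 (SE, adjusted p = 0.0887, edgeR), with 9.9 CPM against 2.9 and 2.3 CPM in F1. DUOX1.1.2, a dual oxidase, differed by 0.10 (95% interval -0.06 to 0.26), and the cyclin features CCNE and CYCA by -0.19 and -0.21. C3, a complement gene, differed by -0.18 (95% interval -0.43 to 0.07). None of these differences was called by edgeR with all libraries, while DESeq2 with all libraries called TBA1.6.12 (adjusted p = 0.00887). In edgeR, TBA1.6.12 and TBA1.1.12 were called without set F2 (adjusted p = 0.039 and 0.0168) and without F2 ZnSO4 (0.00785 and 0.00216). TBA1.6.12 was also called by edgeR without F3 ZnSO4 (0.0107).

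The remaining named features with the smallest p-values were not called with all libraries either. Higher with ZnO were FGFR.2.3, an FGF receptor feature, by 0.38 ± 0.10 (SE), ACT1.2.2 by 0.28, ACT2 by 0.29 and ARS.3.5, an arylsulfatase feature, by 1.16 ± 0.36. ARS.3.5 had 35.0 CPM with ZnO and 7.7 CPM with ZnSO4 in F2, where the control had 61.3 CPM, and at most 6.1 CPM in zinc libraries elsewhere. Its difference was 0.52 without F2 ZnSO4 and was called with the zinc libraries alone (1.36, adjusted p = 0.0255, edgeR). ACT1.2.2 was called without F2 ZnSO4 (0.36, adjusted p = 0.0222, edgeR) and FGFR.2.3 without F1 ZnO (0.53, adjusted p = 0.0078). Lower with ZnO were TBA.1.4 by a log2 difference of -0.88, SCCPDH of -0.32, FRK.1.2, named for a tyrosine kinase, of -0.32, DVL, a dishevelled gene of Wnt signalling, of -0.30, ITPR, an inositol trisphosphate receptor, of -0.30, the mitochondrial ribosomal feature MRPL34.2.3 of -0.30 and TBB4B.1.3, a beta-tubulin feature, of -0.23. SCCPDH, MRPL34.2.3 and FRK.1.2 had differences of one sign and similar size in the 3 sets, of -0.29 to -0.34, -0.22 to -0.37 and -0.25 to -0.35.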

How the data were processed

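The authors deposited raw counts per feature, as whole numbers without normalization, for 63389 features and 19 libraries. Per the submitters' processing notes, the tools were SAMtools 1.3.1, BWA 0.7.12-r1039 and Trim Galore 0.4.0, with no role attached. For the reference, the counting step, its strand setting and its treatment of multiply matching reads, the sources used here give nothing, and splitting of reads between near-identical or overlapping features would alter single values.

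Features passing filterByExpr (62865) were scaled by TMM and fitted in edgeR 4.0.16 (R 4.3.3) with terms for set and treatment over all 19 libraries (12 residual degrees of freedom, common dispersion 0.015), and ZnO was contrasted with ZnSO4. Standard errors are the log2 difference over the root of F. Set pairs the libraries: deviations from treatment means correlated at 0.855 to 0.894 between ZnO and ZnSO4 libraries of a set. Correlations between sets were negative, which follows from the positive ones, since such deviations cancel over the sets. The F1 salt libraries, with a chi-square of 7.12 for each degree of freedom between their counts, were kept as separate samples. The script was checked on simulated data.

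Alternatives were RLE, DESeq2 1.42.0, no or a stricter filter (CPM of 2 in 4 libraries), no set term, the zinc libraries alone, F1 libraries summed, and fits without each set or library. Named are called features with a gene name, further ones with the smallest p up to 12 per direction, 2 unnamed features per direction, members of the metallothionein, heat shock and gut lists, up to 2 of each other list, and the largest zinc responses. The comparison and lists were chosen with earlier results of these data known. One feature taken by the rule is left out here, and some others appear only within their list.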

Additional observations from a re-analysis of the deposited data

Results flagged for a closer look

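Some differences between ZnO and ZnSO4 themselves differed between the sets, by the test of set-by-form terms (edgeR, adjusted over all features). The adjusted p was 2.33e-12 for CHRD and for ANKAT-1.1.2, 1.27e-09 for DLX, 1.77e-08 for GATAE, 6.99e-08 for HMB1, 5.46e-07 for EGIP and 9.22e-07 for ARC3. It was 4.63e-07, 1.07e-06 and 5.71e-07 for ACAC.1.3, ACAC.2.3 and ACAC.3.3. For ENDO16.1.3, ENDO16.2.3 and ENDO16.3.3 it was 0.00232, 0.00889 and 0.00021, and for HSP74.2.2, HSP72.1.3 and HSP72.3.3 it was 0.00127, 0.00713 and 0.0105. NK2.1 (0.000205), ACTG1 (0.000154), TBA1.1.12 (0.000701), TBA1.6.12 (0.00948) and ARS.3.5 (0.00465) also passed. Weaker ones were DVL (0.0236), MMP14.2.5 (0.0254), CCNE (0.0461) and NADK.1.3 (0.0485). In F2, MMP14.2.5 was near the floor, at 0.16 CPM with ZnO and 0.81 CPM with ZnSO4 (log2 difference -2.30). Its differences in F1 and F3 were 0.53 and 0.37. Metallothionein features passed for MT.13.23 (0.00938), MT.8.23 (0.025), MT.9.23 (0.0327), MT.22.23 (0.0418) and MT.11.23 (0.0481). In all, 30 of 87 named features passed, against 2.47% of all features and 11.1% of those with a gene name. The 87 were named partly for small p-values or large zinc responses.

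A library lay far from the other 3 of its treatment in 18 of 174 tests. Chance flags about 1 in 20 where 4 libraries are alike in origin, which does not hold here: in each tested treatment 2 of the 4 share set F1, so that a single F2 or F3 library is the one that can stand apart. Among controls, F2 was far above the others for NDUFS7 (287 CPM), TRIM25 (19.3), ARS.3.5 (61.3), ITPR (25.3), MT.6.23 (522) and NADK.1.3 (109), and below them for ACTC.1.2 (783), HMB1 (94.3), HSP72.1.3 (37.6) and DUOX1.1.2 (457). The F3 control was above the others for MT.11.23 (985) and MT.12.23 (1102). Among ZnSO4 libraries, F2 was above the others for ARS.3.5 (7.74), MT.6.23 (1651), NADK.1.3 (101) and TBA1.1.12 (26.8) and below them for MT.19.23 (12.7), and F3 was below them for MT.21.23 (30.6).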

How the results depend on the processing

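The 49 features called between ZnO and ZnSO4 (28 higher, 21 lower) became 193 (120 and 73) with DESeq2, 99 (66 and 33) with the 7 zinc libraries alone, 1 (0 and 1) with the F1 libraries summed and 0 (0 and 0) with no replicate block, that is, without the set term. Without set F1 they were 300 (227 and 73), without set F3 83 (55 higher), and without set F2 71 (49 higher). Leaving out 1 library gave 4 to 426 called, 2 to 237 higher and 1 to 210 lower. RLE scaling gave 55, no filter 50 and the stricter filter 36. The fits with DESeq2 and with no filter called all 49 main features, and the zinc libraries alone called 29 of them. Their signs were kept in every fit, except for contig_36175 (-1.11) and contig_12876 (-0.617) without the F1 ZnO library, and 2 features not measured without set F1. Within F1, leaving out a salt library gave 1400 to 1436 calls against 2180. Leaving out 1 library gave -1.11 to 2.42 for contig_36175 and -0.617 to 1.85 for contig_12876. The summed metallothionein difference of -0.12 was 0.0221 without set F2, and -0.174 to 0.0464 without 1 library. Of 2549 values of single named features under other settings, 93 lost a call with the sign kept, 2 lost it with the sign turned (both contigs above), 36 gained a call and 104 moved without one. The 36 belong to 17 features, among them HSP72.1.3 and HSP72.3.3 without F3 ZnSO4 (-0.49 each), HSP74.2.2 without set F3 (-1.62), F2 ZnSO4 (-1.58) or F3 ZnSO4 (-1.75), EGIP without set F2 (0.74) or F2 ZnSO4 (0.71), ACTC.1.2 with DESeq2 (0.29), without set F2 (0.41) or without F2 ZnSO4 (0.34), and ACAC.2.3 and ACAC.3.3 without set F1 (0.73 and 0.80). Set pairs the libraries, so no other paired fit was made. With 1 library per form in F2 and F3, and 1 ZnO library in F1, spread between libraries of those groups could not be measured.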
